A study of Mus musculus with 10 samples.

Results

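The genes described here are those of the mitochondrial respiratory chain and ATP synthase in mouse mammary tumors and in macrophages sorted from them: every gene whose symbol starts with mt-, and the protein-coding genes whose symbols start with Nduf, Uqcr, Cox4 to Cox8 or Atp5, or are Sdha, Sdhb, Sdhc or Sdhd. They were chosen by name alone and number 115 of the 24616 genes listed in either deposited table, with 113 of 23202 in the macrophage table, 105 of 19720 in the tumor table and 103 in both. In the macrophage table they comprised 13 mRNA genes, 2 rRNA genes and 8 tRNA genes of mitochondrial DNA (mtDNA), 80 nuclear-encoded subunits, 8 assembly factors (Ndufaf genes), the supercomplex factor Cox7a2l, and Cox5b-ps, which carries a pseudogene name and a protein-coding biotype. The tumor table held the same 13 mRNA and 2 rRNA genes, 5 tRNA genes, 76 nuclear-encoded subunits, 7 assembly factors, Cox7a2l and Cox5b-ps.

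The libraries labelled cKO came from B6:MMTV-PyMT mice with Cxcr4fl/fl alleles and LysmCre, and the control libraries from littermates with MMTV-PyMT and Cxcr4fl/fl but no Cre. All were taken at 15 weeks. The PyMT oncogene, driven by the MMTV promoter in mammary epithelium, and the floxed alleles are thus shared by both groups, and the Lysm promoter drives Cre in myeloid cells in general, not in macrophages alone. Macrophages were sorted on F4/80 and CD11b from tumors of 3 mice labelled cKO (725, 746 and 867) and 3 controls (706, 720 and 775). Snap-frozen whole tumors came from 2 mice labelled cKO (725 and 746) and 2 controls (706 and 720), so 4 mice gave both libraries, and each library within a table is a separate mouse.

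The respiratory chain passes electrons from NADH through complex I, or from succinate through complex II, to coenzyme Q, on to complex III and cytochrome c, and finally to oxygen at complex IV, while complexes I, III and IV pump protons that drive ATP synthase, here called complex V. Its proteins are made from both genomes: mtDNA, transcribed as long polycistronic RNA inside the organelle, encodes core subunits of complexes I, III, IV and V, and the nucleus encodes the remaining subunits and all of complex II. Macrophages are known to lean on this chain to different degrees in different activation states, and succinate dehydrogenase is a known control point of their inflammatory responses.

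Depth, read from the steps between low values, was 14.4 to 25.2 M reads (mega-reads) per macrophage library and 34.2 to 53.4 M reads per tumor library. Values are reads scaled to the same total of listed reads in every library (CPM), and 3 reads correspond to 0.119 to 0.208 CPM in macrophage libraries and 0.0562 to 0.0878 CPM in tumor libraries, counting error only. The deletion was not visible in the level of Cxcr4 itself, which stood at 41.9, 165.2 and 24.1 CPM in macrophages labelled cKO and at 14.45, 135.4 and 54.3 CPM in control macrophages. In tumors it was at 47.9 and 57.6 CPM in those labelled cKO and at 29.8 and 33.4 CPM in controls, so every direction given is that of the labels. Adgre1, which encodes F4/80, spanned 237.5 to 555.5 CPM after sorting, against 17.4 to 28.5 CPM in tumors. The sorted libraries also held epithelial RNA, with Epcam at 339.3 to 616.3 CPM against 330.4 to 462.3 CPM in tumors. Krt8 was at 260.2 to 526.4 CPM in sorted libraries and 50.9 to 69.3 CPM in tumors. A list of 10 epithelial markers summed to 6022 to 10440 CPM in sorted libraries and 6227 to 8516 CPM in tumors. A list of 10 macrophage markers summed to 892.1 to 2610 CPM and 102.7 to 115.8 CPM. Values given for macrophages are those of the sorted libraries, epithelial RNA included.

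Before the levels, a property of the sequences has to be shown, because a read lying wholly within shared bases cannot be placed by its bases alone. Of the 13 mtDNA mRNA genes, 7 have a near-identical copy of all or part of their bases on chromosome 1 (GRCm38, minus strand, chr1:24611535-24616197). The tables list these copies as genes of their own, and 5 of them are without a mismatch over the aligned bases. The pairs are mt-Atp6 with Gm10925, mt-Co1 with Gm29216, mt-Co2 with Gm28661, mt-Co3 with Gm28437, mt-Nd3 with Gm28438, mt-Nd4 with Gm28439 and mt-Nd4l with Gm10222. mt-Nd3 and its copy are shown because a single base separates them over their 345 aligned bases. It is T3C, counted from 1 at the first base of mt-Nd3 with the mt-Nd3 base first, and is in capitals. The first 300 bases of each are given, at chrM:9459-9758 on the plus strand and chr1:24612820-24613119 on the minus strand.
mt-Nd3: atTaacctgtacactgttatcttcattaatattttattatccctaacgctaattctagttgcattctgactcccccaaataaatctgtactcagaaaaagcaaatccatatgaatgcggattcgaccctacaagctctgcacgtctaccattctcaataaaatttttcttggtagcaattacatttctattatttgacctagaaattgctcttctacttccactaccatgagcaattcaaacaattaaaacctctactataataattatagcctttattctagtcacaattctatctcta
Gm28438: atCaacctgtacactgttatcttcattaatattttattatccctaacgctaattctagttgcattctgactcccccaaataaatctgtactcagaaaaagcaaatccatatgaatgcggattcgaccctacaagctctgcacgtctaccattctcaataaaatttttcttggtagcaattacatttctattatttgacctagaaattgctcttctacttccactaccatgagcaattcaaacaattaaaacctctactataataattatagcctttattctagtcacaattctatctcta

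mt-Nd4l, a small membrane subunit of complex I, is shown because its copy carries no difference at all over 294 bases and because it gave the lowest p-value of any respiratory chain gene. The bases at chrM:9877-10170 (plus strand) are the same as those of Gm10222 at chr1:24612407-24612700 (minus strand), so nothing is capitalised.
mt-Nd4l: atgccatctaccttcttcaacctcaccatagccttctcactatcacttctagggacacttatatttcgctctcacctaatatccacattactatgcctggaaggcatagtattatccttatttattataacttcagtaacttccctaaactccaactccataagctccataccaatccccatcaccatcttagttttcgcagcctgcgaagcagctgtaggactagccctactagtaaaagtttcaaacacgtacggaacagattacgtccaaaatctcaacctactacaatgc

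How the deposited values were divided within these pairs differed from gene to gene. For mt-Co3, which encodes subunit III of cytochrome c oxidase, the copy held 47.0% to 50.01% of the pair in macrophages and 49.99% to 50.01% in tumors. For mt-Co2, which encodes the copper-binding subunit II, it held 33.0% to 49.8% in macrophages and 49.8% to 49.9% in tumors. The copy of mt-Atp6, the proton-channel subunit a of ATP synthase, held 33.2% to 49.9% in both tables together. The copies of mt-Nd3, mt-Co1 and mt-Nd4 held at most 0.0541%, 4.31% and 15.3% of their pairs. Gm29216 covers only 492 of the 1545 bases of mt-Co1, and Gm28439 only 876 of the 1378 bases of mt-Nd4. The shares of mt-Co1 and mt-Nd4 therefore cannot be set beside those of copies that span nearly the whole gene. For mt-Nd4l the share on the copy was the least steady, at 19.2% to 40.8% in macrophages and 6.72% to 63.3% in tumors. Levels of these genes are therefore uncertain one by one, and sums of each gene with its copy are given beside them.

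**Figure D1:**
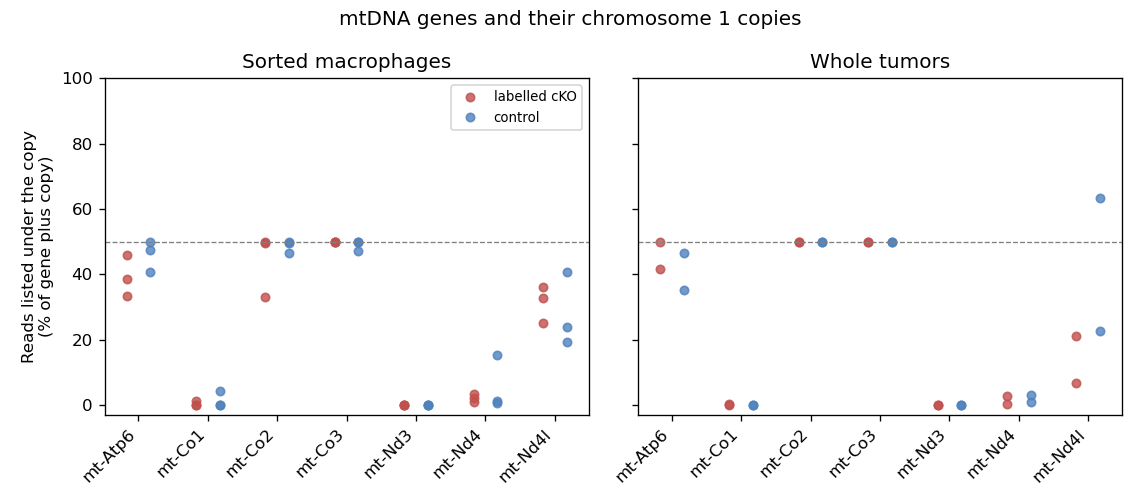
Share of each gene pair's reads that the deposited tables list under the chromosome 1 copy (percent of gene plus copy), for the 7 mtDNA genes with such a copy; points are libraries, red for those labelled cKO and blue for control, and the dashed line marks 50%. mt-Co3 sits at 47.0% to 50.01% in every library, mt-Nd3 near 0, and mt-Nd4l spreads from 6.72% to 63.3% in tumors. The copies of mt-Co1 and mt-Nd4 cover only part of those genes.

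mtDNA-encoded mRNA made up 5.05%, 2.72% and 3.43% of the reads in macrophages labelled cKO (mice 725, 746 and 867), against 1.03%, 4.09% and 1.78% in control macrophages (706, 720 and 775). The groups overlapped: control 720 lay above 746 and 867. With the copies added, the shares were 6.56%, 3.27% and 4.54% in macrophages labelled cKO and 1.33%, 5.30% and 2.32% in controls. Nuclear-encoded subunits together took 0.147%, 0.186% and 0.138% of reads in macrophages labelled cKO and 0.191%, 0.154% and 0.135% in controls, so mtDNA mRNA with its copies outweighed them 44.6, 17.6 and 32.8 times in libraries labelled cKO and 6.96, 34.3 and 17.2 times in controls. In bulk RNA, fewer cells of a type and less RNA per cell cannot be told apart.

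In whole tumors the mtDNA share was nearly level. It was 1.34% and 1.43% in tumors labelled cKO (725 and 746), against 1.29% and 1.32% in control tumors (706 and 720), and with the copies 1.85% and 1.87% against 1.74% and 1.82%. Both tumors labelled cKO lay above both controls, by less than the range seen among macrophage libraries. Per 100 reads of nuclear protein-coding genes the groups overlapped and the order of the means turned, with 2.59 ± 0.00912 in tumors labelled cKO and 2.66 ± 0.115 in control tumors (SD, n = 2 each). Nuclear subunits took 0.126% and 0.110% of reads in tumors labelled cKO and 0.132% and 0.117% in controls. The tables were normalized separately, so macrophage and tumor levels stand side by side without a test.

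**Figure D2:**
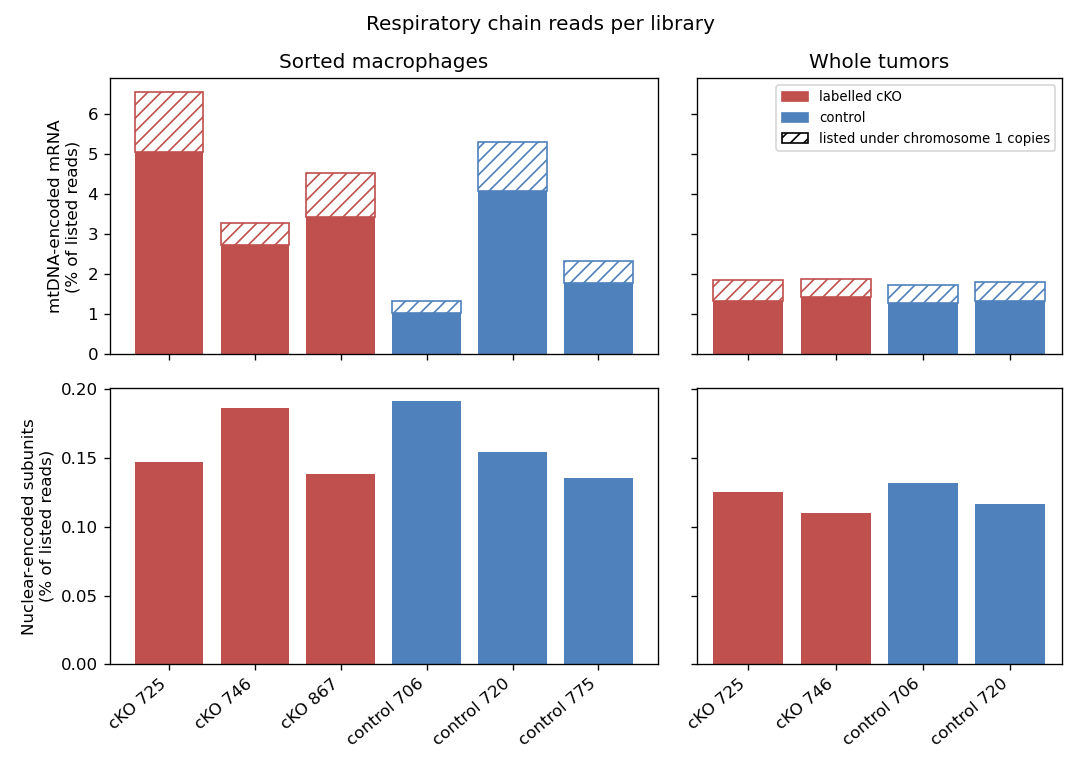
Percent of listed reads in mtDNA-encoded mRNA (upper panels; hatched, reads listed under the chromosome 1 copies) and in nuclear-encoded subunits (lower panels), one bar per library, red for those labelled cKO and blue for control. Macrophage mtDNA shares with copies run from 1.33% to 6.56% and overlap between groups, while the tumor shares lie between 1.74% and 1.87%.

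The mtDNA rRNA genes mt-Rnr1 and mt-Rnr2, the RNA of the mitochondrial ribosome, were low: mt-Rnr2 was at 26.9, 20.7 and 30.6 CPM in macrophages labelled cKO and at 16.0, 32.9 and 16.3 CPM in controls. The labels' protocol removes rRNA. Of the mtDNA tRNA genes, 4 of 8 in macrophages and 0 of 5 in tumors reached a mean of 1 CPM, and mt-Tg (glycine) was the highest, at 9.44, 10.7 and 2.38 CPM in macrophages labelled cKO against 23.1, 7.03 and 9.56 CPM in controls.

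Per kilobase of exon and with the copies added, the mtDNA mRNAs of macrophages ran from mt-Co2 (15640 CPM per kilobase, mean of all libraries) and mt-Nd3 (8374) down to mt-Cytb (1097) and mt-Nd6 (793.8). mt-Cytb encodes cytochrome b of complex III, and mt-Nd6 is the only one of the 13 on the opposite strand. In tumors mt-Co2 (8374) and mt-Nd3 (6021) again led, and mt-Cytb (303.4) and mt-Nd6 (268.1) again came last. Within the mtDNA mRNA pool some genes took shares that did not overlap between the tables. mt-Atp6 took 6.18% to 9.16% of the pool in macrophages and 11.7% to 14.5% in tumors, whereas mt-Cytb took 2.56% to 3.95% in macrophages and 1.70% to 2.25% in tumors. For mt-Nd3 the ranges met, at 4.54% to 10.8% in macrophages and 10.4% to 13.4% in tumors.

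Neighbouring mtDNA genes also share bases with each other. mt-Atp8 and mt-Atp6 overlap by 43 bases and mt-Nd4l and mt-Nd4 by 7 bases on the same strand, and mt-Nd5 and mt-Nd6 overlap by 14 bases on opposite strands. Whether counting used strand is not given in the sources used here.

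Differences are given as log2 differences of CPM + 1, labelled cKO minus control, which understate changes of weakly expressed genes. limma called 0 of 16304 genes tested in macrophages and 0 of 14630 in tumors at a Benjamini-Hochberg adjusted p of 0.05 (0.0% in either direction), and none of the 101 respiratory chain genes tested in macrophages or the 89 in tumors. At an unadjusted p under 0.05 it marked 428 genes in macrophages and 856 in tumors, of which 12 and 3 belong to the chain. In macrophages 11 of those 12 were higher (8 mtDNA mRNAs with overlapping groups, and Cox7a2, Cox6c and Uqcr11), where 1.53% of all genes were. The remaining 1 was lower (Ndufs7, of complex I, -1.62), where 1.09% were. In tumors 2 were higher (mt-Nd4 and mt-Nd4l), beside 3.9% of all genes, and 1 was lower (Cox5b, of complex IV, at 0.109 and 1.78 CPM in tumors labelled cKO and 3.03 and 11.2 CPM in controls), beside 1.95%. Ndufs7 and Cox5b were singled out after their values were seen. The groups of Ndufs7 overlapped in macrophages, at 1.82, 0.05 and 5.84 CPM in those labelled cKO and 5.77, 11.8 and 5.78 CPM in controls. In tumors Ndufs7 went the other way (1.285), with both tumors labelled cKO above both controls.

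In macrophages the mtDNA mRNAs and the nuclear subunits stood apart in their medians. All 13 mtDNA mRNAs had positive differences, with a median of 0.91 and a range of 0.66 to 1.16, beside a median of 0.05 and 54.7% positive over all genes tested. The 13 are transcribed from 1 small genome and are not independent of each other, the groups overlapped for each of them, and the highest control library, 720, stood above at least 1 library labelled cKO each time. The 75 nuclear subunits tested had a median of -0.01, with 37 positive and 38 negative. Measured from the control mean, the median mtDNA mRNA was at 1.30, 0.55 and 0.85 in macrophages labelled cKO and at -0.95, 1.13 and -0.13 in control macrophages, so control 720 stood second after 725 and the other controls stood last. Leaving out control 706 brought the mtDNA median to 0.35, and leaving out control 720 brought it to 1.44.

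The macrophage marker genes (10 of 10 listed) summed to 1605 to 2610 CPM in macrophages labelled cKO and 892.1 to 2321 CPM in controls, and the epithelial markers (10 of 10) to 7822 to 10250 CPM in libraries labelled cKO and 6022 to 10440 CPM in controls. The fibroblast markers (6 of 6) ranged from 57.2 to 1165 CPM in libraries labelled cKO and from 59.5 to 422.3 CPM in controls. Small nuclear RNA took 3.99%, 2.46% and 2.30% of reads in libraries labelled cKO and 2.65%, 2.05% and 6.76% in controls. The part of these in the mtDNA differences was not tested.

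**Figure D3:**
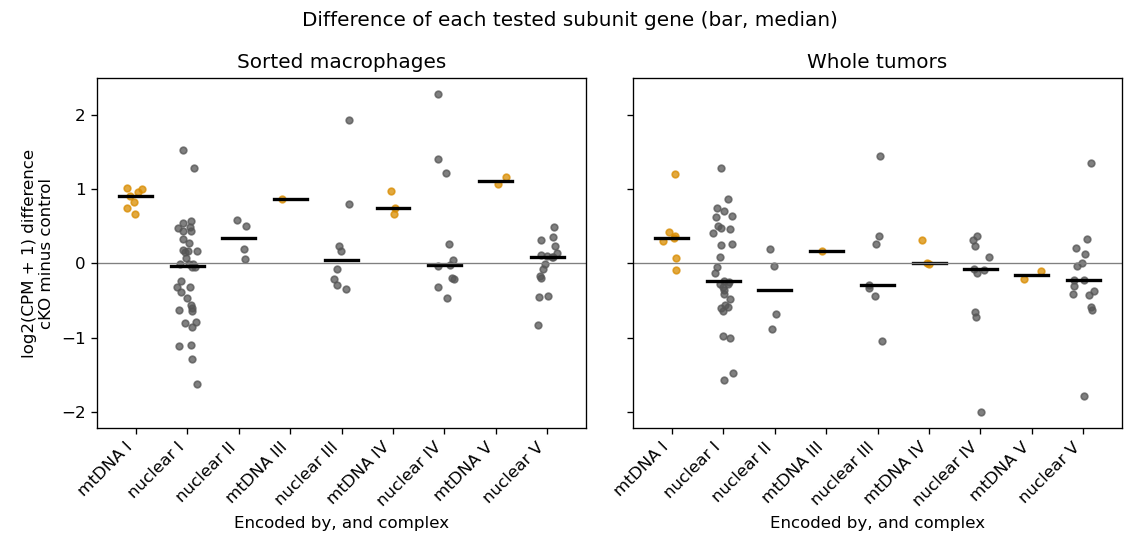
log2(CPM + 1) difference, labelled cKO minus control, of every tested subunit gene (points) by genome and complex, with the median as a bar; orange marks mtDNA-encoded and grey nuclear-encoded genes. In macrophages all 13 mtDNA points lie between 0.66 and 1.16 while the nuclear points centre near 0, and in tumors both sets straddle 0.

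By complex, the macrophage mtDNA medians were 0.91 for the 7 complex I genes, 0.86 for mt-Cytb of complex III, 0.74 for the 3 complex IV genes and 1.11 for the 2 ATP synthase genes. mt-Nd6, a membrane subunit of complex I, had the lowest p of the 13 in macrophages: it was at 507.7, 443.7 and 575.4 CPM in macrophages labelled cKO and at 173.5, 508.6 and 263.1 CPM in controls. The control of mouse 720 reached the level of the libraries labelled cKO, and the log2 difference was 0.82 (SE 0.31, adjusted p = 0.9998, limma). mt-Atp6 was at 4007, 1735 and 2054 CPM in macrophages labelled cKO and at 432.0, 2382 and 1240 CPM in controls. Its difference, the largest of the 13, was 1.16 (SE 0.45), and 0.99 with the copy added. mt-Co2 was at 9769, 4893 and 6919 CPM in macrophages labelled cKO and at 1965, 6716 and 3365 CPM in controls, again with control 720 inside the other group's range.

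The nuclear medians in macrophages were -0.03 for complex I (36 genes), 0.35 for complex II (4), 0.04 for complex III (8), -0.03 for complex IV (11) and 0.08 for ATP synthase (16). Of the 101 chain genes tested, 3 had every library labelled cKO above every control and 2 had every one below, where 3.78% and 3.45% of all genes tested did so, and all 5 were nuclear subunits. That is near the background share. The most abundant nuclear subunit was Atp5b, the catalytic beta subunit of ATP synthase, at 186.3, 221.7 and 181.2 CPM in macrophages labelled cKO and 309.6, 205.5 and 170.0 CPM in controls, which overlap.

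Among the higher genes, Cox7a2, a small structural subunit of complex IV, was at 6.44, 17.9 and 3.86 CPM in macrophages labelled cKO and at 1.53, 0 and 1.39 CPM in controls. Every library labelled cKO exceeded every control at these low levels, with a log2 difference of 2.27 (SE 0.78, adjusted p = 0.9998, limma). In tumors Cox7a2 averaged 0.61 CPM and was not tested. It was at 2.23 and 0 CPM in tumors labelled cKO and at 0 and 0.229 CPM in controls, which overlap. Cox6c, another small subunit of complex IV, was at 13.9, 21.9 and 11.5 CPM in macrophages labelled cKO and at 10.9, 4.08 and 2.87 CPM in controls. The groups only just parted, and the difference was 1.40 (SE 0.58, adjusted p = 0.9998, limma). Uqcr11, a small subunit of complex III, fell outside the naming rule because it averaged under 5 CPM and is given as the remaining gene of the 3: it was at 2.16, 5.15 and 4.93 CPM in macrophages labelled cKO and at 0, 0 and 1.09 CPM in controls.

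Among the lower genes, Atp5g3, which encodes subunit c of the ATP synthase rotor, was at 39.0, 49.5 and 44.8 CPM in macrophages labelled cKO and at 58.3, 65.7 and 58.9 CPM in controls, a clean separation of modest size (log2 difference -0.45, SE 0.29, adjusted p = 0.9998, limma). Ndufb2, an accessory subunit of complex I, was at 8.13, 4.98 and 8.09 CPM in macrophages labelled cKO and at 14.5, 9.76 and 9.91 CPM in controls (-0.63, SE 0.54).

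Complex II, whose 4 subunits are all nuclear, had 4 of 4 positive differences in macrophages, none near the threshold, though that of Sdhd was -0.054 to 0.25 with a library left out and turned negative without 725, 746, control 720 or control 775. Sdha, the flavoprotein that oxidises succinate, was at 79.2, 101.8 and 77.9 CPM in macrophages labelled cKO and at 58.3, 101.1 and 71.9 CPM in controls (0.19, SE 0.28). Sdhb, the iron-sulfur subunit, was at 19.7, 25.2 and 18.6 CPM in macrophages labelled cKO and at 13.7, 19.8 and 9.48 CPM in controls (0.58, SE 0.43). Sdhc and Sdhd, the membrane anchors, differed by 0.51 (SE 0.53) and 0.06 (SE 0.30). All 4 had overlapping groups.

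In tumors, 41 of the 67 nuclear subunits tested had negative and 26 had positive differences, with a median of -0.22 beside 0.09 (56.6% positive) over all genes tested and 0.16 over the 13 mtDNA mRNAs. Both tumors labelled cKO lay below both controls for 20 of the 67 (29.9%), against 14.3% of all genes tested, and above both for 12 (17.9%), against 21.2%. The nuclear median rested on mouse 746: without that tumor it was 0.073. It was -0.071 over the 46 subunits averaging 5 CPM or more. The mtDNA median was 0.017 without control 706, 0.37 without the tumor of mouse 725, and 0.045 when scaled to nuclear protein-coding genes. By complex the nuclear medians were -0.24 (I, 31 genes), -0.36 (II, 4), -0.29 (III, 7), -0.08 (IV, 10) and -0.22 (V, 15), and the mtDNA medians 0.33 (I), 0.16 (III), 0.00 (IV) and -0.15 (V). Skeletal muscle markers, from a tissue rich in this chain, summed to 66.3 and 12.3 CPM in tumors labelled cKO and 22.7 and 11.4 CPM in controls (8 of 9 listed), fibroblast markers to 331.5 and 445.1 CPM in tumors labelled cKO and 595.4 and 704.0 CPM in controls (6 of 6), and the share of small nuclear RNA was 15.6% and 18.00% in tumors labelled cKO and 20.4% and 24.03% in controls. Their part was not tested.

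Among mtDNA genes in tumors, 4 of 13 lay above both controls in both tumors labelled cKO (30.8%, against 21.2% of all genes tested): mt-Nd2, mt-Nd4, mt-Nd4l and mt-Co1. None of the 13 lay below both controls, against 14.3% of all genes. mt-Nd4l itself was at 93.8 and 150.7 CPM in tumors labelled cKO and at 35.0 and 74.9 CPM in control tumors, a log2 difference of 1.20 (SE 0.32, adjusted p = 0.703, limma). Its identical copy Gm10222 ran the other way, at 25.2 and 10.9 CPM in tumors labelled cKO and at 60.3 and 21.8 CPM in controls. Summed, the pair was at 119 and 161.6 CPM in tumors labelled cKO and at 95.3 and 96.7 CPM in controls, and the difference shrank to 0.53 (adjusted p = 0.831, limma). mt-Nd4, a proton-pumping core subunit of complex I, was at 822.5 and 1030 CPM in tumors labelled cKO and at 695.3 and 677.4 CPM in controls, with a difference of 0.42 (SE 0.17, adjusted p = 0.819, limma), and 0.42 with its copy added. mt-Co1, the catalytic core of complex IV, was at 1795 and 2109 CPM in tumors labelled cKO and at 1505 and 1644 CPM in controls (0.31, SE 0.17).

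**Figure D4:**
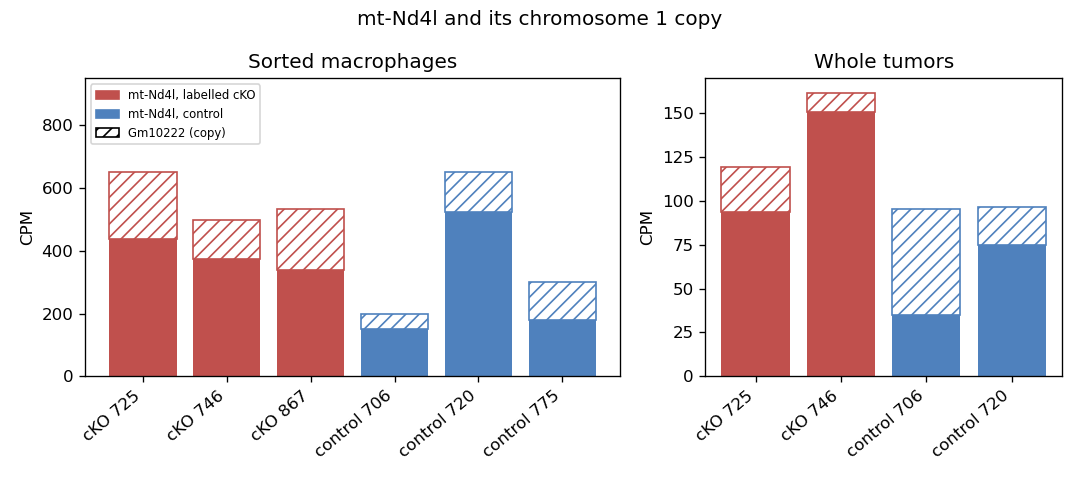
mt-Nd4l (solid) and its identical chromosome 1 copy Gm10222 (hatched) in CPM, stacked per library, red for those labelled cKO and blue for control, with separate axes for macrophages and tumors. In tumors mt-Nd4l alone spans 35.0 to 150.7 CPM, while the summed pair spans 95.3 to 161.6 CPM.

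The tumor nuclear subunits with the lowest p among those averaging 5 CPM or more and higher in both tumors labelled cKO began with Uqcrb, the ubiquinone-binding-region subunit of complex III, at 8.63 and 7.80 CPM in tumors labelled cKO and 2.33 and 2.44 CPM in controls (1.44, SE 0.71, adjusted p = 0.833, limma). Transcripts of other genes hold 29.1% of its 75-base stretches. Atp5g1, another gene for rotor subunit c, was at 7.80 and 7.58 CPM in tumors labelled cKO and 1.86 and 3.11 CPM in controls (1.34, SE 0.73). Ndufb8, an accessory subunit of complex I, differed by 0.63 (SE 0.69), and Uqcrfs1, the Rieske iron-sulfur protein, by 0.27 (SE 0.30).

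Of nuclear subunits averaging 5 CPM or more, those lower in both tumors labelled cKO began, by p, with Sdhb, at 9.33 and 7.32 CPM in tumors labelled cKO and 16.1 and 16.3 CPM in controls (-0.89, SE 0.49, adjusted p = 0.833, limma), whose control values agreed closely. Atp5c1, the central stalk subunit gamma of ATP synthase, was at 66.8 and 46.8 CPM in tumors labelled cKO and 83.6 and 68.5 CPM in controls (-0.43, SE 0.26). Uqcrc2, a core subunit of complex III, was at 61.2 and 59.2 CPM in tumors labelled cKO and 75.8 and 75.7 CPM in controls (-0.33, SE 0.24), with little spread inside either group. Picking by low p and separated groups favors genes with close values within groups, as seen for Sdhb and Uqcrc2. Ndufa7, an accessory subunit of complex I, and Sdhc differed by -1.01 (SE 0.63) and -0.68 (SE 0.50). No respiratory chain gene that was tested in both tables had separated groups in both. Uqcr11, separated upward in macrophages, averaged under 1 CPM in tumors and was not tested there. It was at 0.0187 and 0 CPM in tumors labelled cKO and at 1.90 and 0.0573 CPM in controls, separated the other way at these very low levels.

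Tissue isoforms of complex IV were scarce. Cox4i1, the general isoform of subunit 4, was at 38.6, 67.5 and 34.7 CPM in macrophages labelled cKO and 65.2, 42.8 and 29.8 CPM in controls, while Cox4i2, known as the lung and hypoxia isoform, was above 0 only in macrophages of mouse 746, labelled cKO (2.35 CPM) and was not listed in tumors. Cox6a2, the heart and muscle isoform, was above 0 in macrophages of mouse 867 labelled cKO (1.99 CPM) and in the tumor of control 720 (2.64 CPM), and Cox7a1, also of heart and muscle, in the tumor of mouse 725 labelled cKO (0.749 CPM). Cox6b2, the testis isoform, reached 0.556 CPM in macrophages of mouse 867. Cox7a2l, classed here as a supercomplex factor, was at 121.1, 125.5 and 97.4 CPM in macrophages labelled cKO and 90.1, 119.2 and 98.3 CPM in controls. Ndufa4, now counted with complex IV, differed by -0.03 (SE 0.44) in macrophages and 0.08 (SE 0.52) in tumors.

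Per kilobase of a gene's annotated exons merged, the leading nuclear subunits of complexes II to V in macrophages were Sdhd (48.3 CPM per kilobase), Uqcrc2 (29.0), Cox8a (30.8) and Atp5b (50.1). Those of complexes I to V in tumors were Ndufb6 (15.7), Sdhd (21.1), Uqcrfs1 (27.1), Cox5a (35.1) and Atp5b (38.7). Some leaders hold for this length only. The longest protein-coding transcript is far shorter than the merged exons for Cox5a (645 against 2101 bases), Uqcrh (547 against 1237) and Ndufb5 (1079 against 4995). By transcript length Cox5a passes Cox8a in macrophages, and Uqcrh passes Uqcrc2 there. In tumors Uqcrh passes Uqcrfs1 and Ndufb5 passes Ndufb6. Nuclear subunits also share bases with transcripts of other genes, and the effect of this on their values was not tested. Of 80 nuclear subunits checked, 35 share at least one 75-base stretch with transcripts of other genes, and 15 share 20% or more of theirs, led by Atp5l (76.0%).

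Promoters were examined because the nuclear subunits are known to be regulated together by the factors NRF1, the ETS protein GABP, YY1 and ERR. RefSeq promoters (GRCm38.p6, 250 bases before to 50 after the start) matched 67 of 81 nuclear subunits. The NRF1 palindrome, the letters capitalised first in the Cox6a1 promoter, occurred on either strand in 7.46% of them and in 1.07% of all 27025 genes with a promoter, CCGGAAG (ETS) in 25.4% and 9.93%, AAGATGGCG (YY1) in 10.4% and 1.64%, TCAAGGTCA (ERR) in 2.99% and 0.466%, and CCAAT in 43.3% and 41.1%. A match is a run of letters and not a shown site. The 27025 genes were not limited to protein-coding or expressed genes, nor matched for base content. Whether these shares are particular to respiratory chain genes was therefore not tested. In the 250 bases before the start alone, the YY1 letters occurred in 1.49% of subunit genes and 0.711% of all genes. Windows of different genes and alternative starts can overlap.

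The promoter of Cox6a1, the general isoform of subunit 6a, is shown for holding 3 of these motifs, and that of Uqcr11 as a gene with separated macrophage groups. Both are the 250 bases before the start, read on the minus strand, with motif matches in capitals: in Cox6a1 (chr5:115348959-115349208) NRF1 begins 162, CCAAT 74 and ETS, on the other strand, 16 bases before the start, and in Uqcr11 (chr10:80406822-80407071) ETS begins 66 bases before it.
Cox6a1 promoter: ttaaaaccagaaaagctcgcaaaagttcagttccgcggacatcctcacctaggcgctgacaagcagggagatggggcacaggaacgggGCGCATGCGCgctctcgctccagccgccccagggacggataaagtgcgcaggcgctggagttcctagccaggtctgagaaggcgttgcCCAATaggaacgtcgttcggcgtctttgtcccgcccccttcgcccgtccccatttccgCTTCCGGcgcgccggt
Uqcr11 promoter: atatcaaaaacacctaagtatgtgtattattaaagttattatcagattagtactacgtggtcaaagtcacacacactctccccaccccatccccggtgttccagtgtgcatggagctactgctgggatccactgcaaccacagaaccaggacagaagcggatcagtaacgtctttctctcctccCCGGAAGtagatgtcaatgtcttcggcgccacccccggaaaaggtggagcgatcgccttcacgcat

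The wider pathway was read from a list of 85 electron carriers, assembly factors, mitochondrial gene-expression factors, regulators and mass markers. limma called none of the 81 tested in macrophages, where 34 had positive and 47 negative differences (median -0.05), and none of the 81 in tumors, where 43 were positive and 38 negative (median 0.02). In macrophages, groups were separated upward for 2 of the 81 (2.47%) and downward for 3 (3.70%), near the 3.78% and 3.45% of all genes tested. Tufm, the mitochondrial translation elongation factor, was at 3.81, 0.133 and 1.10 CPM in macrophages labelled cKO and at 11.9, 6.87 and 13.03 CPM in controls (-2.32, SE 0.73, adjusted p = 0.9998, limma), and Mterf3, which restrains mtDNA transcription, differed by -0.54 (SE 0.41). The 10 mass markers had a median of -0.03 in macrophages, with 3 positive and 7 negative. In tumors 16 of the 81 (19.8%) lay above both controls and 11 (13.6%) below, near the 21.2% and 14.3% of all genes tested. Hspd1, the matrix chaperonin, was at 53.6 and 38.2 CPM in tumors labelled cKO and at 87.1 and 75.03 CPM in controls (-0.82, SE 0.26), Tmem70, an ATP synthase assembly factor, differed by -1.04 (SE 0.38), and the assembly factors Sdhaf3 and Surf1 by 1.70 (SE 0.67) and 1.66 (SE 0.90).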

How the data were processed

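RNA of 6 macrophage and 4 tumor libraries was depleted of rRNA, per the labels' protocols. STAR 2.7.8a, Partek and GRCm38 are named in the submitters' processing notes, and the counting tool and strand setting are not given in the sources used here. The deposited values are log2(CPM + 1), read from the values since 2 to each value minus 1 sums to the same total in every library, that of CPM. Low values (under 20 reads) came out as whole reads within 0.1 read for 82.7% to 89.4% in macrophages and 80.6% to 84.4% in tumors, so no count test was run.

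The tables were normalized separately. limma 3.58.1 (R 4.3.3, eBayes with an intensity trend) was run within each on genes averaging 1 CPM or more, labelled cKO minus control, giving two-sided Benjamini-Hochberg adjusted p-values. Lists are described by counts and medians, without a test. Alternatives were pseudocounts of 0.1 and 5, other filters, TMM, median-ratio and protein-coding scaling, no trend, and libraries left out. Summing mtDNA genes with their copies was added after seeing the data. Positions come from GENCODE vM21 by gene identifier, since 2.19% and 2.29% of genes had the same start in the tables, and promoters from RefSeq.

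Named genes are the 13 mtDNA mRNAs, complex II, isoform families, the top subunit per kilobase in each complex and, per table and direction, the 5 members (2 of the wider list) with the lowest p among those at 5 CPM or more with separated groups. A result that this rule picked is not reported here. The members and lists were chosen with earlier results of these data known.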

Additional observations from a re-analysis of the deposited data

How the results depend on the processing

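No paired analysis was possible because cKO and control mice share no numbers. No respiratory chain gene was called under any alternative run. Genes called over the macrophage table numbered 0 to 3 with a library left out (3 without control 775, 1 without control 706, 1 without cKO 867), and 2 in the 4 mice with a tumor library. With a library left out, the macrophage mtDNA median was 0.35 to 1.44, the nuclear median -0.09 to 0.18 and the gap between them 0.25 to 1.49. In tumors the mtDNA median was 0.017 to 0.37 (0.37 without cKO 725), the nuclear median -0.26 to 0.073 and the gap 0.024 to 0.63, the lowest gap and highest nuclear median being those without cKO 746. Under the other alternatives the macrophage mtDNA median was 0.86 to 0.91, the tumor mtDNA median 0.045 to 0.16 and the tumor nuclear median -0.26 to -0.071. Per 100 nuclear protein-coding reads, the tumor difference, cKO minus control, was -0.063 for mtDNA mRNA (0.080 per 100 listed reads) and -0.031 for nuclear subunits (-0.0063). The cause of these shifts was not tested.

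Of 977 alternative values for 68 named results, 939 kept their sign and 38 turned, all uncalled. In the 4 shared mice, macrophage Cox4i1 was -0.047 and Uqcrc2 0.015. Tumor mt-Nd1 was -0.0062 with median-ratio factors and -0.042 scaled to nuclear protein-coding genes, where Ndufa4 was -0.024. With a library left out, log2 differences that turned ranged, in macrophages, as Atp5b -0.37 to 0.065, Cox4i1 -0.25 to 0.32, Cox6a1 -0.60 to 0.10, Cox6b1 -0.73 to 0.049, Cox8a -0.48 to 0.042, Ndufa4 -0.28 to 0.19, Sdhd -0.054 to 0.25, and in tumors as Atp5b -0.010 to 0.25, Cox5a -0.38 to 0.20, Cox6b1 -1.14 to 0.87, Cox7a2l -0.56 to 0.19, Ndufa4 -0.23 to 0.40, Ndufb6 -0.22 to 1.22, Sdhd -0.61 to 0.52, mt-Co2 -0.11 to 0.098, mt-Co3 -0.078 to 0.072, mt-Cytb -0.045 to 0.37, mt-Nd1 -0.034 to 0.19, mt-Nd3 -0.20 to 0.017, mt-Nd6 -0.060 to 0.79. Depth limits genes near 1 CPM, and 2 tumors a group limit every tumor value.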
